A study of Mus musculus with 407 samples.

Results

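The ubiquitin ligases of muscle atrophy and the Foxo factors that control them were followed across 4 mouse muscles and 6 ages. The set was fixed by gene name and holds 10 of the 24458 genes of the count tables. It has 8 ligase genes, Fbxo32, Fbxo30, Fbxo31, Fbxo21, Trim63, Traf6, Cblb and Nedd4, and the transcription factors Foxo1 and Foxo3. RNA was sequenced from C57BL/6J mice of both sexes, from 98 diaphragm, 104 gastrocnemius, 103 soleus and 102 tibialis anterior samples taken at 6 months and at the older ages 12, 18, 21, 24 or 27 months, and the question was which genes change with age. The mice were untreated wild types of an inbred strain, bought at various ages, and each library came from 1 muscle of 1 mouse, with 6 to 10 libraries per group and 8 and 10 at 6 and 27 months in every muscle and sex. The tissues of an age group were collected on a single day, so an effect of age and one of the collection day cannot be told apart. Levels are given as CPM, counts scaled to a common library size, and changes as log2 fold changes against 6 months with their standard error (SE).

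A ubiquitin ligase attaches ubiquitin to a chosen protein, and many proteins with a ubiquitin chain are degraded by the proteasome. Fbxo32 (atrogin-1 or MAFbx) and Trim63 (MuRF1) are the classical ligases of muscle wasting, known to rise with fasting, denervation, disuse and glucocorticoids. Insulin and IGF-1 signalling through Akt keeps the Foxo factors out of the nucleus, and when that signal drops Foxo1 and Foxo3 enter it and switch on ligase and autophagy genes.

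The libraries held 38583802 to 300089909 counts (median 72766895), and all 10 genes passed the filter on low counts in every fit. The lowest count of a member in a library was 81 (Fbxo31), and Fbxo32 had 9463 to 183157, so the spread between mice rather than counting set the precision of nearly all values. Skeletal fibre markers, 10 genes, summed to between 36563 and 330551 CPM in every library, and slow fibre markers were highest in the soleus (7856 to 23788 CPM) and lowest in the tibialis anterior (66.2 to 364). In such bulk tissue, fewer cells of a type and less RNA per cell cannot be told apart. Liver markers, 10 genes, were high in 54 libraries, at more than 10 times the median of the muscle and sex. Their sum reached 31518 CPM in the diaphragm, 2138 in the soleus, 679 in the gastrocnemius and 643 in the tibialis anterior. Of all libraries, 7 stood apart, with a correlation below 0.9 with the median profile of their muscle and sex. All 7 were diaphragm, and in 6 of them genes of high GC content were low. Fbxo31 and Foxo3, whose transcripts lie at GC percentiles 98.1 and 96.2, were also low there. Outside this cut, GC-rich genes were high relative to GC-poor ones in male gastrocnemius replicate 7 at 12 months and female gastrocnemius replicate 0 at 27 months. The difference was 1.21 and 1.04 on the log2 scale. Male replicate 8 at 27 months was high for Fbxo32 in all 4 muscles, and results that rest on it, or on the 7 libraries, are given with and without them.

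Of the 10 genes, 8 passed in at least 1 comparison of an older age with 6 months, and Fbxo32 and Nedd4 in none. An adjusted p below 0.05 (edgeR's quasi-likelihood test, Benjamini-Hochberg over all genes tested) was reached in 24 of 400 tests of a member at an older age against 6 months, of which 20 rose and 4 fell, beside 4.33% and 3.78% of all genes. This is 6% of the tests, beside 8.11% over all genes, and a fold change above 1.5 was also reached in 3 tests, beside 2.49% of all. At 27 months 13 of 80 tests passed, beside 15.3% of all genes in the same 8 fits. Of the 10 members, 3 passed at that age in male gastrocnemius (23.1% of all genes), 4 in male tibialis anterior (17.7%), 1 in male diaphragm (8.62%) and 0 in male soleus (2.83%). In females 2 passed in gastrocnemius (29.1%), 2 in tibialis anterior (21.9%), 1 in soleus (18.7%) and 0 in diaphragm (1.61%). The calls were uneven among the genes, with 9 for Fbxo21, 4 for Fbxo30, 3 each for Trim63 and Foxo1, 2 for Foxo3, 1 each for Fbxo31, Traf6 and Cblb, and 0 of 40 for Fbxo32 and for Nedd4. Calls of a gene at several ages of a muscle and sex share their 6-month libraries and are not independent. By muscle, over the 5 older ages, male gastrocnemius had 3 of 50, tibialis anterior 4, diaphragm 1 and soleus 0, beside 10.4%, 8.42%, 4.1% and 1.81% of all genes. In females gastrocnemius had 7 of 50, tibialis anterior 8, soleus 1 and diaphragm 0, beside 14.8%, 10.7%, 14% and 1.34%. Behind the counts of 0, edgeR gave 1 unadjusted p below 0.05 in the male soleus and 4 in the female diaphragm, and limma-voom and DESeq2 called 0 in each. No member both passed with a fold above 1.5 by edgeR at some age and followed a linear or logistic age curve, which 1.39% to 5.11% of all genes did. Curves were chosen by the study's margins, but the straight line was fitted on the logarithm of age, where the paper describes expression over time. The calls were edgeR's with Benjamini-Hochberg adjustment, not limma's with Bonferroni adjustment.

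**Figure D1:**
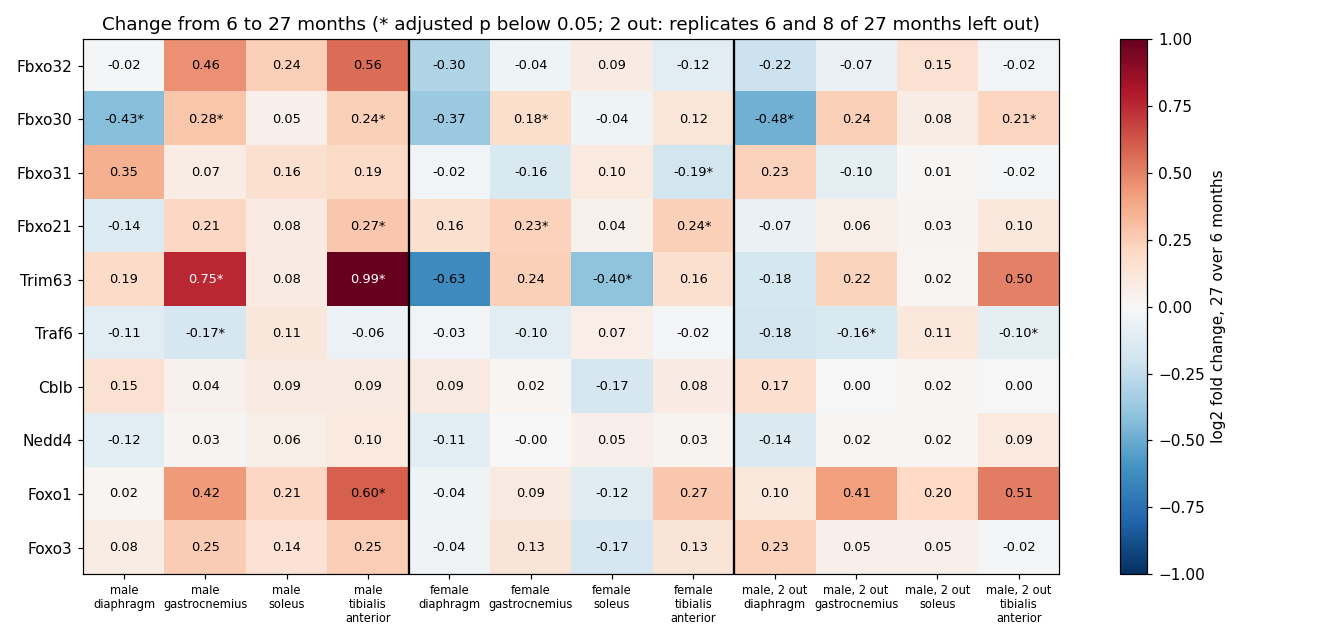
Log2 fold change of each gene (rows) from 6 to 27 months in each muscle and sex (columns), from edgeR; asterisks mark an adjusted p below 0.05, and the last 4 columns leave out male replicates 6 and 8 of 27 months. Trim63 has the deepest colours, 0.75 in male gastrocnemius and 0.99 in male tibialis anterior, which fall to 0.22 and 0.50 without those replicates.

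Fbxo32 (chr15:58175879-58214892, minus strand, GRCm38.p6), the F-box substrate receptor of an SCF ligase, was the most abundant member per kilobase of exons in every muscle but the diaphragm. In the male gastrocnemius it lay at 485 to 846 CPM at 6 months (median 575) and at 451 to 2527 at 27 months (median 624). In the male tibialis anterior the range was 500.004 to 943 at 6 months (median 558) and 361 to 2416 at 27 months (median 676). The medians of old and young males thus lay close together, the ranges overlapped, and the high end at 27 months came from 2 libraries, replicate 8 in both muscles and replicate 6 with 1242 and 1619 CPM. The log2 fold change was 0.46 (SE 0.20, adjusted p 0.0965) in male gastrocnemius and 0.56 (SE 0.23, adjusted p 0.0775) in male tibialis anterior. Without those 2 replicates it was -0.07 and -0.02, and without replicate 9 of every age it passed in male tibialis anterior (0.63, adjusted p 0.0457). The F test over all older ages also passed for Fbxo32 in male tibialis anterior (adjusted p 0.0388), beside 25.2% of all genes there, and in no other muscle or sex. In females the values at 27 months ran from -0.30 (SE 0.18) in the diaphragm to 0.09 (SE 0.08) in the soleus, and none passed.

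Trim63 (chr4:134315120-134329629, plus strand), a RING finger ligase of the sarcomere that acts on myosin heavy chains among other proteins, changed most in size. In the male tibialis anterior it was at 63.6 to 108 CPM at 6 months (median 75.9) and at 57.3 to 417 at 27 months (median 124). In the male gastrocnemius the range was 62.2 to 116 at 6 months (median 79.4) and 80.6 to 475 at 27 months (median 95.8). The old libraries reached higher than any young one in both muscles, while the lower ends overlapped. Trim63 rose with a log2 fold change of 0.99 (SE 0.27, adjusted p 0.00727) in male tibialis anterior and 0.75 (SE 0.22, adjusted p 0.00866) in male gastrocnemius. Without replicate 8 of 27 months the values were 0.68 (adjusted p 0.0427) and 0.31 (adjusted p 0.0632), and without replicates 6 and 8 they were 0.50 (adjusted p 0.141) and 0.22 (adjusted p 0.189). With the replicate number as a block they were 0.80 (adjusted p 0.0336) and 0.43 (adjusted p 0.0917), and limma-voom gave 0.70 (adjusted p 0.0528) and 0.52 (adjusted p 0.0408). In the female soleus Trim63 fell by 0.40 (SE 0.13, adjusted p 0.0222), from 32.0 to 78.3 CPM (median 49.0) at 6 months to 28.1 to 51.5 (median 36.6) at 27 months, with ranges that overlapped. That call was lost without replicate 4 and without replicate 5, with adjusted p up to 0.180. In the same muscle 6 of 6 fibroblast markers fell, beside 8.64% of all genes, from 1183 to 2129 CPM in sum to 631 to 1307. None of them was at 0, and their part was not tested. In the female diaphragm, where no member passed, the change was -0.63 (SE 0.23, adjusted p 0.144).

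**Figure D2:**
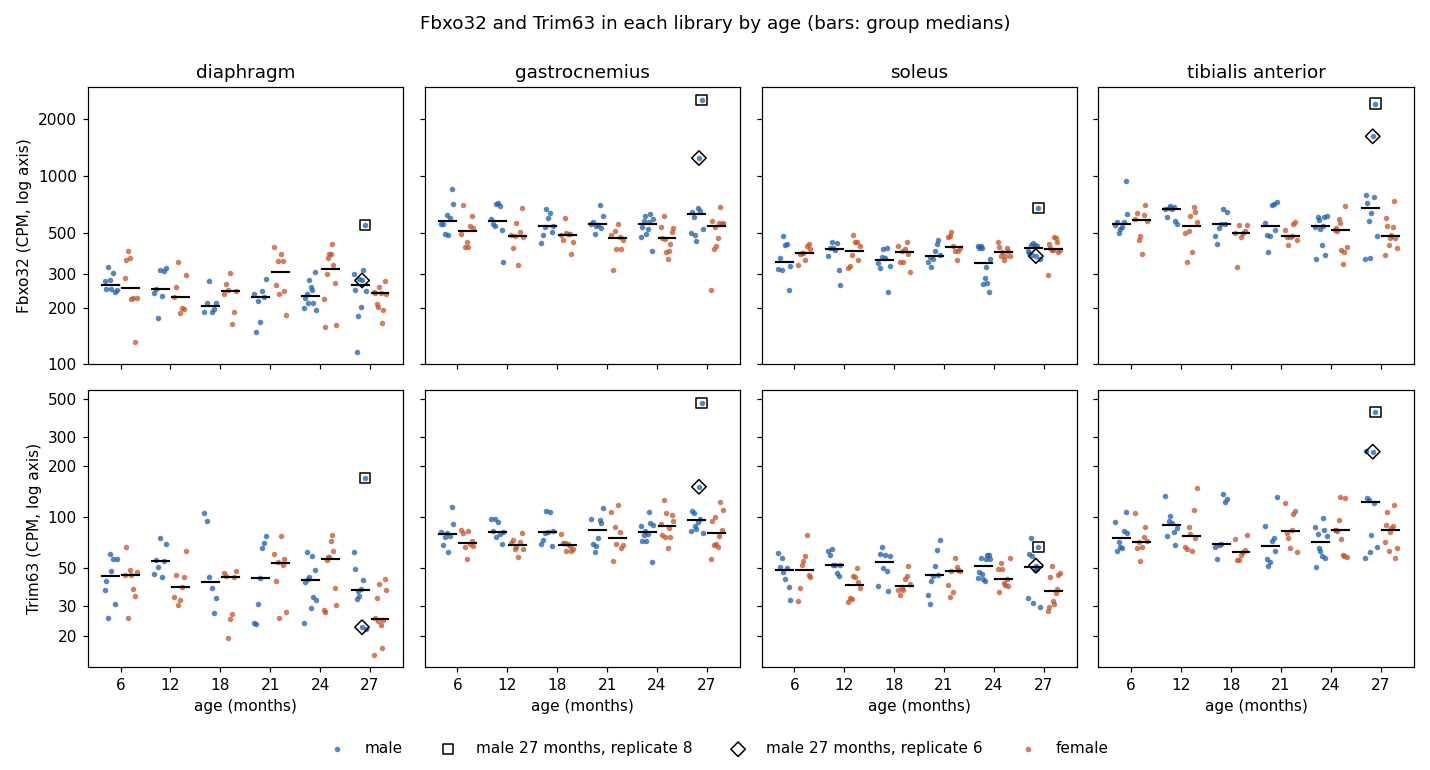
Fbxo32 (top) and Trim63 (bottom) in every library, in CPM on a log axis, by age in months for the 4 muscles; points are libraries, blue male and orange female, and bars are group medians. Male replicate 8 at 27 months (square) reaches 2527 CPM of Fbxo32 in gastrocnemius and 2416 in tibialis anterior, and replicate 6 (diamond) 1242 and 1619, above all other libraries of these muscles.

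The upstream window of Trim63 is shown because this gene had the largest log2 fold changes among the 400 tests and because Foxo factors and the glucocorticoid receptor are known to act there. It covers chr4:134314870-134315119 of GRCm38.p6 (RefSeq), plus strand, 5′ to 3′, and ends at the base before the annotated start. Capitals mark the words TGTTCT (a receptor half-site) at position -200, TGTTTAC (the Foxo word) at -194 and CAGCTG (an E-box) at -72, counted from the start.
Trim63: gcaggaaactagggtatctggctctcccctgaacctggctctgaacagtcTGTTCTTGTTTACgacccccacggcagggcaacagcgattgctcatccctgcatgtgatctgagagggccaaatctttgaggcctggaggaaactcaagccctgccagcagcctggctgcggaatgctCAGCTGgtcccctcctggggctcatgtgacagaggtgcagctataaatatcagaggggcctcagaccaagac
The first 2 words adjoin. On either strand TGTTTAC is found in 3.17% of 32851 such windows, CAGCTG in 4271 of them and TGTTCT in 16.1%. A window was at hand for 9 members, and of these only Trim63 held TGTTTAC, while an alternative start of Nedd4 held the other 2 words. Fbxo32 had no window in the table. Only these words were searched for, not longer sites that may hold them. A word is a description of these letters and shows no binding.

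Replicate 8 of the 27-month males was examined in each muscle. Its Fbxo32 level was the highest of 10 in all 4, at 2527 CPM in gastrocnemius, 2416 in tibialis anterior, 677 in soleus and 550 in diaphragm. These are 4.17, 3.82, 1.70 and 2.21 times the median of the other 9 libraries. Trim63 was 5.09, 3.45, 1.35 and 4.67 times that median in the same order, and was second highest rather than highest in the soleus. Foxo3 was 2.35, 1.67 and 2.45 times the median of the others in gastrocnemius, soleus and tibialis anterior but 0.738 times in the diaphragm. Cblb was 1.64, 1.57 and 1.84 times it in the 3 limb muscles, and Nedd4, at 1.13, 1.17 and 1.02 times, stayed near the others. The labels do not say that libraries with the same number share a mouse. Over 4947 genes, libraries of the same age and number had a median correlation of their deviations of 0.25 to 0.40 between limb muscles in males and 0.12 to 0.30 in females. Between the diaphragm and a limb muscle it was 0.0073 to 0.081 in males and -0.026 to 0.036 in females.

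**Figure D3:**
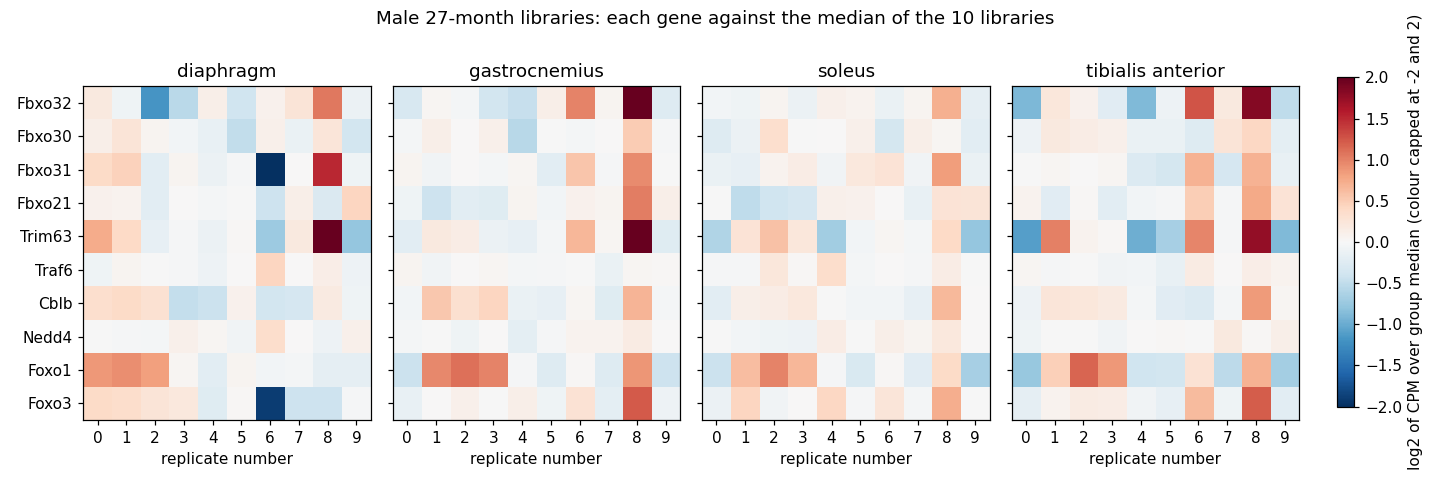
Each gene (rows) in each of the 10 male libraries of 27 months (columns, by replicate number) in the 4 muscles, as the log2 ratio of its CPM to the median of the group, with colour capped at -2 and 2. Replicate 8 is red for Fbxo32 in all 4 muscles, and Foxo1 is red in replicates 1, 2, 3 and 8 of the limb muscles.

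Fbxo30 (chr10:11281330-11305750, plus strand), known as MUSA1, is a denervation-induced F-box ligase held down by BMP signalling. It rose in gastrocnemius of both sexes and male tibialis anterior and fell in the male diaphragm. In the male gastrocnemius the values were 22.3 to 31.3 CPM at 6 months (median 29.9) and 23.0 to 47.6 at 27 months (median 33.6), and in the male tibialis anterior 31.4 to 37.8 (median 34.9) and 32.8 to 52.6 (median 39.3). In the male diaphragm they were 40.7 to 118 (median 50.7) and 31.0 to 52.4 (median 43.9). All these ranges overlap. Fbxo30 rose by 0.28 (SE 0.10, adjusted p 0.0429) in male gastrocnemius, 0.24 (SE 0.07, adjusted p 0.0161) in male tibialis anterior and 0.18 (SE 0.07, adjusted p 0.0390) in female gastrocnemius. It fell by 0.43 (SE 0.13, adjusted p 0.0387) in the male diaphragm, where the young library at 118 CPM is one of those that stand apart. Without the libraries that stand apart this value was -0.24 (adjusted p 0.109), and in the female diaphragm it was -0.37 with them (adjusted p 0.147) and -0.38 without (adjusted p 0.0465). Without replicate 8 of 27 months the values were 0.24 in male gastrocnemius (adjusted p 0.0708) and 0.18 in male tibialis anterior (adjusted p 0.0520). Over the alternatives to the test, scaling, filter, terms and libraries, Bonferroni adjustment and a required fold not counted, the call was kept in 9 of 19 in male gastrocnemius, 15 of 19 in male tibialis anterior, 6 of 17 in female gastrocnemius and 10 of 20 in male diaphragm, with no change of sign. In the male diaphragm all 7 T cell markers tested rose at 27 months, beside 5.11% of all genes. Their sum was 1.33 to 2.79 CPM at 6 months and 1.15 to 34.4 at 27 months, and none was at 0 in all libraries. Their part in the Fbxo30 result was not tested.

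Fbxo21 (chr5:117976770-118010198, plus strand), known as SMART, is an F-box ligase needed for full denervation atrophy, and its rise in females was the steadiest change of the set. In the female tibialis anterior it was at 9.44 to 10.98 CPM at 6 months (median 10.2) and at 11.1 to 13.1 at 27 months (median 11.7). In the female gastrocnemius it was at 10.3 to 11.9 (median 10.8) and 11.5 to 15.0 (median 12.6). The young and old ranges of the tibialis anterior did not touch, in a comparison where 21.9% of all genes passed, and those of the gastrocnemius met only at their edges. Fbxo21 rose at 18, 21, 24 and 27 months in both muscles, by 0.24, 0.30, 0.23 and 0.23 in gastrocnemius (adjusted p 3.26e-06 to 0.000262) and by 0.28, 0.22, 0.22 and 0.24 in tibialis anterior (adjusted p 0.000253 to 0.00296). At 18, 21 and 24 months 9.54%, 15.7% and 19.1% of all genes passed in female gastrocnemius and 4.5%, 10.6% and 16.2% in female tibialis anterior. In each muscle the 4 ages were compared with the same 6-month libraries, so the calls of a muscle are not independent of each other. These 8 Fbxo21 calls in females were kept in each of 17 alternatives to the test, scaling, filter, terms and libraries. With Bonferroni adjustment 3 remained in gastrocnemius (21, 24 and 27 months) and 1 in tibialis anterior (18 months), and none had a fold above 1.5. At 12 months the median was 11.3 and 10.8 CPM, and neither value passed. In the male tibialis anterior Fbxo21 rose by 0.27 at 27 months (SE 0.09, adjusted p 0.0265), and without replicate 8 the value was 0.17 (adjusted p 0.0971).

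Other markers moved in the same female muscles. In the female gastrocnemius 7 of 8 slow fibre markers rose by 27 months (956 to 1523 CPM in sum at 6 months, 1419 to 2789 at 27) and 8 of 9 fast fibre markers fell (91649 to 105708, then 71602 to 95108). In the female tibialis anterior 9 of 9 liver markers tested rose, from 0.472 to 21.1 CPM in sum to 1.38 to 643, and 5 of 10 macrophage markers rose, from 34.7 to 68.1 to 53.1 to 138. There 4 of 8 slow fibre markers rose and 2 fell (122 to 210 CPM in sum at 6 months, 79.3 to 364 at 27). Of all genes, 14.6% rose and 14.5% fell in female gastrocnemius, and 12.1% rose and 9.79% fell in female tibialis anterior. No marker of these lists was at 0 in all libraries of a group. Without libraries of high liver markers Fbxo21 still rose in the female tibialis anterior, by 0.23 (adjusted p 0.00395). The part of the fibre and macrophage markers was not tested.

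Fbxo31 (chr8:121549443-121578864, minus strand), an F-box protein with a role in cell cycle arrest, overlaps a gene on the other strand, and the libraries are strand-specific. In the female tibialis anterior it was at 82.8 to 111 CPM at 6 months (median 98.1) and 69.3 to 96.4 at 27 months (median 85.3). The old range was lower but overlapped the young one, and Fbxo31 fell by 0.19 (SE 0.05, adjusted p 0.0096). The call was lost without the libraries of high liver markers (-0.13, adjusted p 0.149), without replicate 0 and without replicate 4. In the female gastrocnemius the change was -0.16 (SE 0.07, adjusted p 0.0906), and it passed without replicate 0 of every age (-0.21, adjusted p 0.0180). In the 4 male muscles the change was 0.07 to 0.35 with none passed.

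**Figure D4:**
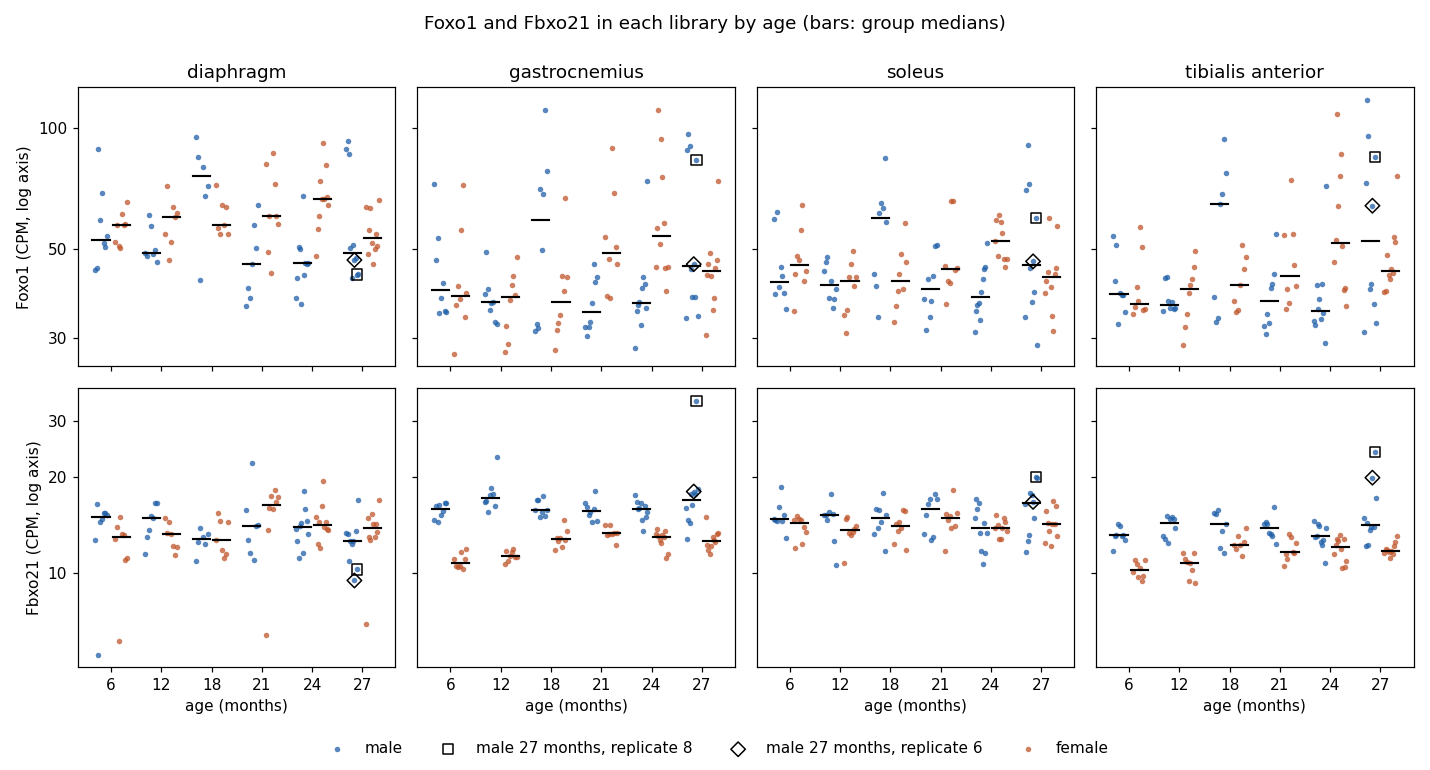
Foxo1 (top) and Fbxo21 (bottom) in every library, in CPM on a log axis, by age in months; points are libraries, blue male and orange female, and bars are group medians, with male replicates 8 (square) and 6 (diamond) of 27 months marked. Fbxo21 medians of female gastrocnemius and tibialis anterior are 10.8 and 10.2 CPM at 6 months and 12.6 and 11.7 at 27 months, below the male medians, and Foxo1 is spread widely at 18 and 27 months in males and 24 months in females.

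Among the RING and HECT ligases other than Trim63, changes were small. Traf6 (chr2:101678420-101701668, plus strand), which builds Lys63-linked chains in NF-kB signalling and is needed for full denervation atrophy, fell in the male gastrocnemius. Its values were 33.6 to 37.8 CPM at 6 months (median 36.4) and 29.5 to 33.4 at 27 months (median 32.2). No old library reached the lowest young one, in a comparison where 23.1% of all genes passed, and the log2 fold change was -0.17 (SE 0.04, adjusted p 0.00313), kept in all 19 alternatives to the test, scaling, filter, terms and libraries but not with Bonferroni adjustment. In that muscle 4 of 8 slow fibre markers rose (556 to 854 CPM in sum at 6 months, 468 to 1320 at 27) and 7 of 9 fast fibre markers fell (99719 to 107876, then 78870 to 94275), beside 10.6% and 12.6% of all genes. None was at 0, and their part was not tested. Without replicates 6 and 8 Traf6 also fell in the male tibialis anterior, by 0.10 (adjusted p 0.0484), where all libraries gave -0.06 (adjusted p 0.265). Cblb (chr16:52031230-52208047, plus strand), which targets the insulin receptor substrate Irs1 in unloaded muscle, rose in the female tibialis anterior at 24 months by 0.26 (SE 0.07, adjusted p 0.00811). There it was at 28.9 to 40.9 CPM at 6 months (median 32.8) and 30.9 to 47.1 at 24 months (median 39.7), and by 27 months the median was 35.1. Nedd4 (chr9:72662331-72749851, plus strand), a HECT ligase raised in denervated muscle, varied least. Its medians lay between 449.6 and 505 CPM in the diaphragm and between 627 and 716 in the gastrocnemius over all ages, and its changes at 27 months lay within -0.12 and 0.10. In male tibialis anterior the change of 0.10 (edgeR, adjusted p 0.0635) passed with DESeq2 (adjusted p 0.0499) and without replicate 3 of every age (adjusted p 0.0473). In male diaphragm at 21 months Nedd4 passed with the run of sample numbers as a term (-0.23, adjusted p 0.0301), where the main fit gave -0.19 (adjusted p 0.125).

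Foxo1 (chr3:52268337-52350109, plus strand) had wide within-group spreads in limb muscle. In the male tibialis anterior it was at 32.5 to 53.7 CPM at 6 months (median 38.6) and 31.0 to 118 at 27 months (median 52.4), so that the lower ends were alike and the upper ends were not. Its log2 fold change was 0.60 (SE 0.21, adjusted p 0.0431), a call that 15 of 19 alternatives lost, with values from 0.46 to 0.74. In females Foxo1 rose at 24 months, by 0.55 in gastrocnemius (SE 0.20, adjusted p 0.0416) and 0.56 in tibialis anterior (SE 0.17, adjusted p 0.0148). The female gastrocnemius ran from 27.3 to 72.0 CPM at 6 months (median 38.1) and from 39.3 to 111 at 24 months (median 53.8), and the tibialis anterior from 34.3 to 56.6 (median 36.4) and 35.9 to 109 (median 51.7). Replicate 2 was the highest library of 24 months in both muscles, and without it the values were 0.41 (adjusted p 0.183) and 0.43 (adjusted p 0.0811). The gastrocnemius call was also lost without replicate 0, 1, 3, 4, 6 or 7 and with no filter on low counts. At 27 months the female values were 0.09 and 0.27, and neither passed. In males the medians at 18 months were 75.9, 59.0, 59.8 and 64.6 CPM in diaphragm, gastrocnemius, soleus and tibialis anterior, beside 52.6, 39.4, 41.4 and 38.6 at 6 months. The ranges overlapped and no male value at 18 months passed. The F test over all older ages passed for Foxo1 in 4 of 8 muscles and sexes, the gastrocnemius and tibialis anterior of both sexes. Its adjusted p was 0.0156 in male gastrocnemius, beside 28.5% of all genes, and 0.00826 in male tibialis anterior, beside 25.2%. In the female gastrocnemius it was 0.00896, beside 35.4% of all genes, and in the female tibialis anterior 0.0190. The same F test passed for Trim63 in 3 muscles and sexes and for Fbxo30, Fbxo21 and Foxo3 in 2 each. For Fbxo32, Fbxo31, Traf6 and Cblb it passed in 1 each.

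The spread of Foxo1 went with glucocorticoid response genes. Over the deviations of all libraries (98 to 104 per muscle) from their group means, Foxo1 correlated with the mean of 12 such genes at r = 0.63, and at 0.77 in the 394 libraries left without those that stand apart and male replicates 6 and 8 of 27 months. The points share muscle and, within an age, collection day, so this is a description. Libraries of different muscles may also come from the same mouse, which the labels do not say, so agreement between muscles need not be independent. Among the 27-month males the 4 highest Foxo1 values were those of replicates 1, 2, 3 and 8 in gastrocnemius, soleus and tibialis anterior alike. In gastrocnemius they had 83.1 to 96.5 CPM, beside 33.5 to 45.7 in the other 6, and the same 4 replicates had the 4 highest sums of the glucocorticoid list (1062 to 1157 CPM, beside 496 to 793). In the soleus these 4 had 59.6 to 90.7 CPM of Foxo1 beside 28.8 to 46.5, and in the tibialis anterior 73.0 to 118 beside 31.0 to 64.0. In the diaphragm replicates 0, 1 and 2 were highest in Foxo1, at 86.1 to 92.8 CPM beside 42.1 to 51.0, and ranked 2 to 4 in the list sum, behind replicate 8 (1826 CPM), which stands apart.

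Foxo3 (chr10:42181845-42276695, minus strand), the factor best known to drive Fbxo32 and autophagy genes in wasting, rose in females at 24 months. In the gastrocnemius it was at 21.6 to 28.4 CPM at 6 months (median 25.6) and 23.9 to 33.8 at 24 months (median 29.3), and in the tibialis anterior at 22.3 to 24.9 (median 24.3) and 22.3 to 34.1 (median 26.2). The ranges overlap. The changes were 0.21 (SE 0.06, adjusted p 0.0124) and 0.22 (SE 0.07, adjusted p 0.0149), the second lost without replicate 2 and without replicate 3. At 27 months none of the 8 values of Foxo3 passed. In the male tibialis anterior it was 0.25 (SE 0.12, adjusted p 0.132) with all libraries and -0.02 without replicates 6 and 8.

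The sexes differed in the level of several of these genes. Averaged over the 6 ages, 19 of 40 tests of male against female passed, beside 38.5% of all genes in the same tests, and limma-voom also called 19. By muscle the share of all genes was 58.2% in gastrocnemius, 47.8% in tibialis anterior, 30.8% in soleus and 18.8% in diaphragm. Foxo3 was lower in males by 0.35 in gastrocnemius (21.6 and 27.3 CPM, SE 0.04, adjusted p 6.32e-14), by 0.35 in tibialis anterior (20.1 and 25.6 CPM, SE 0.04, adjusted p 1.16e-12) and by 0.33 in soleus (18.7 and 23.4 CPM, SE 0.04, adjusted p 3.48e-12). Fbxo21 was higher in males, by 0.41 in gastrocnemius (16.5 and 12.3 CPM, SE 0.03, adjusted p 4.34e-21) and 0.28 in tibialis anterior (14.0 and 11.5 CPM, SE 0.03, adjusted p 2.06e-14). Fbxo32 was higher in males by 0.31 in gastrocnemius and 0.27 in tibialis anterior and lower by 0.11 in soleus, and Trim63 was higher by 0.21 in gastrocnemius and 0.23 in soleus. Nedd4 was higher in male gastrocnemius (0.11) and tibialis anterior (0.14), Traf6 in all 3 limb muscles (0.06 to 0.12) and Fbxo30 in soleus (0.08). Fbxo31 was lower in male gastrocnemius (-0.17) and tibialis anterior (-0.15) and higher in male soleus (0.14). In the diaphragm no member passed with all libraries, and Fbxo30, Foxo3 and Traf6 did without those that stand apart, at 0.16, -0.10 and 0.06.

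Levels were also compared between the 4 muscles. Expressed per kilobase of exons so that genes can be compared, Fbxo32 had median levels of 35.1, 76.03, 57.0 and 77.8 CPM per kilobase in diaphragm, gastrocnemius, soleus and tibialis anterior. Nedd4 followed with 44.0, 61.3, 54.0 and 58.3, and the order of these 2 was reversed in the diaphragm. Trim63 had 15.3, 28.2, 16.3 and 27.3, Fbxo31 10.6, 16.7, 9.86 and 15.8, and Fbxo30 8.87, 5.88, 9.75 and 6.82. Foxo1 lay at 4.64 to 6.35 and Traf6 at 3.00 to 4.74, and Cblb, Foxo3 and Fbxo21 lay between 2.26 and 3.35 in every muscle, with ranges over libraries that overlapped. The span of Traf6 overlaps that of these lowest genes. A difference between 2 muscles with a fold above 1.5 was called in 17 of 60 tests of a member in males and 13 of 60 in females, beside 37.1% and 37.4% of all genes.

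**Figure D5:**
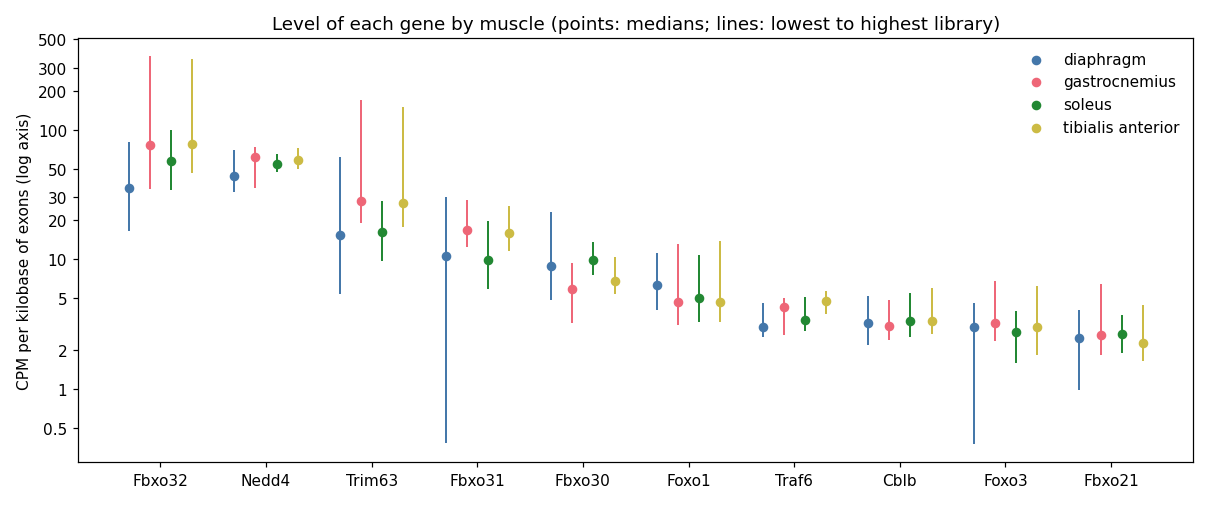
Level of each gene in each muscle, in CPM per kilobase of exons on a log axis, both sexes and all ages together; points are medians and lines run from the lowest to the highest library. Fbxo32, Trim63 and Fbxo31 have their higher medians in gastrocnemius and tibialis anterior, Fbxo30 in soleus and diaphragm, and the low ends of Fbxo31 and Foxo3 in the diaphragm come from libraries that stand apart.

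The classical ligases were lower in the diaphragm and soleus than in the fast limb muscles. Fbxo32 in the diaphragm was below gastrocnemius by a log2 difference of 1.41 in males (mean 246 and 613 CPM, SE 0.08, adjusted p 1.8e-38) and 0.88 in females (265 and 486 CPM, SE 0.06, adjusted p 1.7e-33). Trim63 in the soleus was below gastrocnemius by 0.84 in males (50.9 and 92.5 CPM, SE 0.10, adjusted p 2.1e-13) and 0.83 in females (43.4 and 78.0 CPM, SE 0.07, adjusted p 3.1e-23). Gastrocnemius and tibialis anterior did not differ past the threshold in Fbxo32, Trim63 or Fbxo31 in either sex. Fbxo30 had the opposite order, with soleus above gastrocnemius by 0.76 in males and 0.74 in females. Foxo1 was higher in the diaphragm than in the 3 limb muscles in females by 0.39 to 0.40, and the limb muscles did not differ from each other past the threshold. In males it was higher than in gastrocnemius and soleus by 0.19, and the difference from tibialis anterior did not pass (0.15, adjusted p 0.0929). Another scaling of the library sizes, the RLE method, moved the median difference of all genes between male diaphragm and gastrocnemius from 0.02 to 0.20. Male diaphragm values are therefore to be read against a shift of that size, in which the direction of Fbxo32 and Trim63 held. The fast fibre markers moved with these levels (71602 to 110105 CPM in gastrocnemius, 5622 to 20823 in diaphragm and 6355 to 20780 in soleus, 9 genes), and their part was not tested.

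The change with age itself was compared between muscles and between the sexes. From 6 to 27 months, 3 of 60 differences between a muscle and the gastrocnemius passed, beside 2.21% of all genes. All 3 were in the diaphragm, where 3.4% of all genes passed in males and 3.21% in females. The change of Fbxo30 was lower there than in gastrocnemius by 0.67 in males (SE 0.14, adjusted p 0.00104) and 0.54 in females (SE 0.13, adjusted p 0.0034), and that of Trim63 by 0.86 in females (SE 0.24, adjusted p 0.0208). These calls held in every alternative to the fit and libraries run for them, and without the libraries that stand apart the Fbxo30 values were -0.53 and -0.54. Between the sexes 0 of 40 differences in change passed, beside 1% of all genes. Without adjustment edgeR gave 10 values below 0.05, and limma-voom called 0. The change of Trim63 was higher in males than in females in 4 of 4 muscles, by 0.50 to 0.83, with adjusted p between 0.158 and 0.773, so the male rise was not shown to differ from the female change.

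The wider pathway was counted from lists of genes by role. Of 24 other muscle ubiquitin ligases, 10 rose and none fell in the female soleus at 27 months, beside 10% of all genes that rose there, while 3 rose and 4 fell in male gastrocnemius (10.6% and 12.6% of all genes) and 6 rose and 5 fell in female gastrocnemius (14.6% and 14.5%). Ubr4, an N-end rule ligase, rose in 5 of 8 muscles and sexes, by 0.30 in male tibialis anterior (488 and 594 CPM, adjusted p 0.0002) and 0.19 to 0.23 in the others. Fbxl22, an F-box protein of the sarcomere, rose in 3, by 0.76 in female soleus. Wwp1 fell in 2, by 0.21 in female gastrocnemius and 0.29 in male soleus, and Ubr2 fell in female gastrocnemius (-0.13) and tibialis anterior (-0.09) but rose in female soleus (0.11). In the remaining 5 muscles and sexes 0 to 3 of the 24 rose and at most 1 fell, beside 0.618% to 12.1% and 0.988% to 9.79% of all genes. In male tibialis anterior 3 rose (9.94% of all genes), in male soleus 2 (1.78%) and in female tibialis anterior 0 (12.1%).

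Of 23 genes of the SCF core, the E1 and E2 enzymes, ubiquitin and deubiquitinases, 8 fell and 1 rose in female gastrocnemius, 5 fell and 1 rose in male gastrocnemius, and 5 rose and none fell in female soleus. Of all genes, 14.5% fell in female and 12.6% in male gastrocnemius, and 10% rose in female soleus. Ube2d1, an E2 enzyme that works with Trim63 in vitro, fell in 3 muscles and sexes, by 0.36 in female gastrocnemius (147 and 114 CPM). Usp14, a deubiquitinase of the proteasome, rose in 4, by 0.28 in male tibialis anterior, and Skp1a, the adaptor between F-box proteins and cullin, rose in both tibialis anterior groups, by 0.19 in males and 0.09 in females.

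Other Foxo factors and known Foxo targets split in both directions. Of 24 such genes, 10 rose and 7 fell in male gastrocnemius, beside 10.6% and 12.6% of all genes, and 7 rose and 5 fell in male tibialis anterior, beside 9.94% and 7.8%. In females 4 rose and 7 fell in gastrocnemius, beside 14.6% and 14.5%, and 5 rose and 6 fell in tibialis anterior, beside 12.1% and 9.79%. Gadd45a, a denervation-induced target, rose in 7 of 8, from 7.11 to 29.9 CPM in male gastrocnemius and from 7.16 to 31.6 in female tibialis anterior (log2 fold change 2.08 and 2.17). Sqstm1 (p62), an autophagy receptor, rose in 5, by 0.42 in male tibialis anterior. Cdkn1b (p27), a cell cycle inhibitor, fell in 7, by 0.68 in female gastrocnemius, and Foxo4 fell in 4, by 0.29 in male gastrocnemius (83.7 and 68.2 CPM). The Foxo4 decrease was seen in gastrocnemius and tibialis anterior of both sexes, where no fall of Foxo1 or Foxo3 passed.

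Upstream signals of the ligases, 24 genes of insulin and IGF-1 signalling, the myostatin and TGF-beta pathway, cytokine and NF-kB signalling, with the glucocorticoid receptor and Ppargc1a, had 8 that rose and none that fell in male gastrocnemius, beside 10.6% and 12.6% of all genes. In female gastrocnemius 6 rose and 5 fell, beside 14.6% and 14.5%. Smad7, an inhibitory Smad, rose in 5 muscles and sexes and Fst, the myostatin antagonist follistatin, in 4, with 0.79 in female soleus and 0.76 in male soleus. Mstn (myostatin) fell in female gastrocnemius (-0.44) and tibialis anterior (-0.35), and Igf1 fell in female soleus (-0.87) and male tibialis anterior (-0.49). Of 13 genes listed for denervation, 12 rose in male gastrocnemius, 10 in male tibialis anterior and 11 in each of the same female muscles, beside 9.94% to 14.6% of all genes. In the soleus 7 rose in each sex, beside 1.78% of all genes in males and 10% in females. In the diaphragm 3 rose in males (5.11%) and 1 in females (0.618%). Myh3, the embryonic myosin, rose in 8 of 8 and Runx1 in 7, with Runx1 at 10.8 and 47.7 CPM in male gastrocnemius (log2 fold change 2.16), while Chrne fell in female soleus (-0.33) and male tibialis anterior (-0.25) and rose in female gastrocnemius (0.17). Of 12 glucocorticoid response genes 3 rose and 1 fell in male gastrocnemius, and 2 rose and 3 fell in female gastrocnemius, beside the shares of all genes given above for these muscles. Mt2, a metallothionein, rose in 4, by 2.52 in male gastrocnemius (5.37 and 30.5 CPM), and Mt1 in 2. Cebpd and Klf15 fell in female gastrocnemius (-0.55 and -0.21), and Klf15 rose in male gastrocnemius (0.35).

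Within groups, pairs of members moved together to different degrees. Over the deviations of all libraries from their group means, Fbxo32 and Trim63 correlated at r = 0.61, and at 0.56 in the 397 libraries without those that stand apart and replicate 8. Cblb and Foxo1 correlated at 0.47. Fbxo31 and Foxo3 correlated at 0.83, and at 0.53 in the 400 libraries without those that stand apart, of which 6 of 7 had low GC-rich genes. The points share muscle, collection day, possibly the mouse and, for Fbxo31 and Foxo3, a high GC content. The genes with the pattern most like a member over the 48 group means were Clip1 for Fbxo32 (r = 0.97), Ube2k for Traf6 (0.99), Gadl1 for Nedd4 (0.98) and Cd36 for Fbxo30 (0.96), and D230025D16Rik for Trim63 (0.93). For Fbxo31 it was Tfeb (0.97), for Foxo3 Gemin4 (0.85), for Foxo1 Fam117b (0.80), for Fbxo21 Nxn (0.79) and for Cblb Sf3b1 (0.56). Over deviations within groups without the libraries that stand apart, Foxo1 was most like Map3k6 (0.78), Fam107a (0.73) and Wbp1l (0.71), and Foxo3 most like Ulk1 (0.67), a gene of autophagy initiation.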

How the data were processed

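RNA of mouse muscles was measured by strand-specific total RNA sequencing of paired 76-base reads, which the authors aligned to mm10 in ArrayStudio (version not given in the sources used here) and counted per gene of a RefSeq-based model. The deposited values are raw counts per gene. Where a symbol stood on more than 1 row (329 symbols), the row with the highest total was kept, and the other 633 rows (0.0335% of counts) were left out. Groups came from the sample titles. For each muscle and sex, edgeR 4.0.16 (R 4.3.3) was run on these counts with its default filter on low counts, TMM scaling and the robust quasi-likelihood test, each older age against 6 months, with Benjamini-Hochberg adjustment over all genes tested and a threshold of 0.05. Muscles within a sex, and sexes within a muscle, were fitted in the same way. CPM was scaled over all libraries. Limma 3.58.1 (voom), DESeq2 1.42.0, RLE scaling, no filter, the replicate number as a block, the run of sample numbers as a term, Bonferroni adjustment, an added fold of 1.5, and leaving out each replicate number or libraries with high liver markers were tried. Leaving out the libraries that stand apart, or male replicates 6 and 8 of 27 months, was chosen after seeing the data. The edgeR step was tested on simulated data. All members are named, with, from each list, up to 2 genes that rose and 2 that fell in the most fits, and the genes of most like pattern. The members and gene lists were chosen with earlier results of these data known. Same-numbered libraries of different ages did not deviate together (median correlation -0.00253 to 0.0443). Sequences are from RefSeq tables of GRCm38.p6, and counts limit precision only through counting error.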

Additional observations from a re-analysis of the deposited data

Results flagged for a closer look

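In 38 of the 160 groups of 6 or 27 months (a member in a muscle, sex and age), 1 library lay far from the rest by Dixon's ratio, where chance gives about 1 in 20. Several came from diaphragm libraries that stand apart. Female replicate 2 at 6 months was low in Fbxo31 (8.34 CPM), Fbxo21 (6.13) and Foxo3 (5.27) and high in Traf6 (33.2) and Nedd4 (705). Male replicate 2 at 6 months was low in Fbxo31 (2.11), Fbxo21 (5.53) and Foxo3 (2.87) and high in Fbxo30 (118), Traf6 (35.7) and Nedd4 (665). Female replicate 0 at 27 months was low in Fbxo31 (4.90), Fbxo21 (6.93) and Foxo3 (3.43) and high in Nedd4 (744). Male replicate 6 at 27 months was low in Fbxo31 (8.89) and Foxo3 (5.95) and high in Traf6 (31.8) and Nedd4 (591).

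Male replicate 8 at 27 months was far above its group in Trim63 in diaphragm (171 CPM) and gastrocnemius (475), in Fbxo32 (677), Fbxo31 (105) and Cblb (56.1) in soleus, in Fbxo21 (34.7) and Foxo3 (50.2) in gastrocnemius, and in Cblb in tibialis anterior (61.1). Female gastrocnemius replicate 0 at 27 months was far below its group in Fbxo32 (248.5 CPM), Fbxo30 (18.5), Traf6 (20.9) and Nedd4 (398). In that library GC-rich genes were high relative to GC-poor ones, by 1.04 on the log2 scale. The transcripts of these members lie at GC percentiles 25.2, 5.69, 24.6 and 19.3. The other libraries were female soleus replicate 0 at 27 months in Fbxo32 (297 CPM) and at 6 months in Fbxo30 (42.3), male tibialis anterior at 6 months in Fbxo32 (replicate 6, 943) and Cblb (replicate 5, 48.9), male gastrocnemius replicate 4 at 27 months in Fbxo30 (23.0), male soleus replicate 7 at 6 months in Traf6 (33.7) and female tibialis anterior replicate 9 at 27 months in Foxo1 (75.8).

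The change from 6 to 27 months differed between muscles by an interaction test in 3 cases, all diaphragm against gastrocnemius. The differences were -0.86 for Trim63 in females, -0.54 for Fbxo30 in females and -0.67 for Fbxo30 in males, on the log2 scale.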

How the results depend on the processing

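Counts are members with an adjusted p below 0.05 over the 5 older ages, of 50. In male diaphragm (1) the count was 0 with limma-voom, the replicate block, Bonferroni adjustment, a fold of 1.5 required, or without the libraries that stand apart. In male gastrocnemius (3) it was 1 with the block, without replicate 8 of 27 months, without replicates 6 and 8, and with the fold required, and 0 with Bonferroni adjustment. In male tibialis anterior (4) it was 1 with limma-voom and without replicate 8, 2 with the block, without replicates 6 and 8 and with the fold required, and 0 with Bonferroni adjustment. In female diaphragm (0) it was 2 without the libraries that stand apart. In female gastrocnemius (7) Bonferroni adjustment gave 3 and the fold 0, and in female tibialis anterior (8) they gave 1 and 0. In female soleus (1) it was 2 with the block and with the run of sample numbers as a term, 3 without libraries of high liver markers, and 0 with Bonferroni adjustment or the fold. The cause was not tested. Leaving out each replicate number gave 0 to 1 in male diaphragm, 1 to 4 in male gastrocnemius, 0 to 0 in male soleus, 2 to 5 in male tibialis anterior, 0 to 2 in female diaphragm, 5 to 10 in female gastrocnemius, 0 to 2 in female soleus and 6 to 8 in female tibialis anterior. The labels do not say what a shared number means, and the block left the other counts within 1.5 times (8 in female gastrocnemius and 8 in female tibialis anterior). Of the 24 calls, 11 were kept in every alternative to the test, scaling, filter or libraries, 13 were lost in at least 1, and none changed sign.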

Other observations

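Among the marker lists of other cell types, counted at 27 against 6 months, the fibroblast list moved most evenly. Some of its 6 genes fell and none rose in each of the 8 muscles and sexes. In male diaphragm, female diaphragm and female tibialis anterior 2 fell, beside 3.5%, 0.988% and 9.79% of all genes. In female soleus 6 fell, beside 8.64%. By gene, Col1a2, Col1a1, Col3a1 and Dcn fell in 8, 6, 5 and 4 of the 8, and Pdgfra and Lum in 2 each. In male soleus 3 of the 6 fell, beside 1.05% of all genes. The 6 genes summed there to 1042 to 1740 CPM at 6 months and 802 to 1022 at 27 months, so that the ranges did not overlap. Of 5 Schwann cell markers 3 fell in male diaphragm, beside 3.5% of all genes, from 85.1 to 116 CPM in sum to 60.5 to 90.2. Adipocyte markers passed only in female tibialis anterior, where 2 of 6 rose, beside 12.1% of all genes. B and plasma cell markers rose in 5 of the 8 muscles and sexes, with 1 gene each, beside 5.11% to 14.6% of all genes. Endothelial markers were mixed, with at most 2 of 6 in a direction, beside 0.618% to 14.6% of all genes that rose and 0.988% to 14.5% that fell. The denervation genes had a median log2 change of 1.07 in male gastrocnemius and 0.90 in female gastrocnemius, where the medians of all genes lay near 0.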
